A study of Homo sapiens with 8 samples.

Results

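The integrin and laminin chain genes are 31 of the 24630 genes and unnamed transcript features counted here, 21 encoding integrin chains and 10 encoding laminin chains. They were taken by name from a list of the 2 families, and the counts of all RefSeq accessions of a gene were summed. They were measured in the human lung adenocarcinoma line PC9R and in its parent PC9, with 2 RNA-seq libraries, 1 list of DNase hypersensitive sites (DHS, open chromatin) and 1 list of H3K4me2 ChIP-seq peaks per line. PC9R was obtained by selecting PC9 cells with gefitinib, an inhibitor of the EGFR kinase, over 1 to 2 weeks, and PC9 is the gefitinib-sensitive parent with no selection in the labels. Both lines carry the activating EGFR mutation for which PC9 is known, were grown in DMEM and were used at passages 8 to 12. The sources used here do not say whether PC9R is 1 clone, and the drug and the line cannot be told apart. No label gives the libraries of a line as independent cultures, and the p-values refer to variation among these libraries alone, part of which may be technical.

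Integrins are heterodimers of an alpha and a beta chain that span the plasma membrane and tie the extracellular matrix to the actin cytoskeleton or, at hemidesmosomes, to keratin filaments. Laminins are heterotrimers of an alpha, a beta and a gamma chain, and they form the sheet-like core of basement membranes, on which lung epithelial cells sit. Integrins that contain the ITGA3, ITGA6 or ITGA7 chain bind laminins, so both families meet at the cell base.

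The RNA libraries held 32502455 and 16715426 counts in PC9R, against 32515891 and 16013058 counts in PC9, giving the first library before the second in each line. Of the 31 genes, 21 passed the filter on low counts and 10 did not. ITGA8, ITGAV, ITGB6, LAMA2 and LAMA3 had 0 counts in all 4 libraries. ITGA8 has 1 accession, while the other 4 have between 2 and 7 accessions each. Genes with several accessions held only 6.74% to 6.93% of the counts in PC9R, against 6.86% to 7.07% in PC9, so a low count of such a gene was not read as low expression. All 6 epithelial markers passed the filter, with summed levels of 18812 and 10756 CPM (counts scaled to library size, TMM-normalized) in PC9R, against 24186 and 10552 CPM in PC9. The summed levels of the leukocyte list were 17.5 and 13.6 CPM in PC9R, against 8.75 and 8.54 CPM in PC9, and 1 of its 5 genes, CD68, passed the filter. PTPRC, the defining leukocyte gene, has 4 accessions and had 0 counts in PC9R and 2 counts in PC9. CD3E, with 1 accession, had 1 count in PC9R and 3 counts in PC9. The fibroblast list summed to 65.2 and 14.2 CPM in PC9R, against 24.4 and 6.34 CPM in PC9, nearly all of it COL1A1. With 1 accession each, COL1A2 had 3 counts in PC9R and 1 in PC9, and COL3A1 had 1 in PC9R and 2 in PC9. PDGFRB was tested and did not pass (edgeR with a batch term, adjusted p = 0.102). DCN had 0 counts over 6 accessions, so the limit on genes with several accessions holds for it. The endothelial list summed to 46.8 and 20.1 CPM in PC9R, against 22.4 and 12.7 CPM in PC9, with CDH5 and PECAM1 above VWF and at most 1 count of KDR in a library. With a batch term edgeR called 1 gene of each list higher in PC9R and none lower, where 11.2% of all features were called higher. The calls were CDH1 among 6 tested epithelial genes (edgeR adjusted p = 0.0474) and CD68, the only leukocyte gene tested (edgeR adjusted p = 0.0431). The others were COL1A1 among 2 tested fibroblast genes (edgeR adjusted p = 0.00642) and CDH5 among 3 tested endothelial genes (edgeR adjusted p = 0.0371). Without the term edgeR called none of these genes. The part of these lists in the results below was not tested, and in bulk RNA a change in cell makeup and a change in RNA per cell cannot be told apart.

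The sequences printed here are 4 promoter windows and an open site shared by both lines inside LAMC1. The windows are the 288 bases before the canonical transcription start site (TSS) of the 4 laminin genes higher in PC9R when library number was modelled. This length was set by how far a PC9R DHS at LAMB3 reaches before the TSS. These sequences were not tested against the RNA results. All are GRCh37, read 5′ to 3′ on the strand of the gene, and capitals mark GGGCGG or its reverse complement CCGCCC, the core of a GC box. LAMB3 lies on the minus strand, with its window at chr1:209825771-209826058. LAMC3 (plus strand) has its window at chr9:133884273-133884560, LAMC1 (plus strand) at chr1:182992267-182992554, and LAMA1 (minus strand) at chr18:7117797-7118084. The shared site is the middle 300 bases, chr1:182993062-182993361, of the overlap between the DHS of both lines, and 208 of its bases are annotated as coding sequence.
LAMB3 promoter: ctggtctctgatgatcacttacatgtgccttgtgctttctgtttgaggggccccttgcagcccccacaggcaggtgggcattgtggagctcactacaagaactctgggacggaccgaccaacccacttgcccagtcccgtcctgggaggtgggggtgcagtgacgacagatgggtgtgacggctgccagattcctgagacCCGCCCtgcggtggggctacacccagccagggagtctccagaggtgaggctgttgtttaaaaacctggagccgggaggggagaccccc
LAMC3 promoter: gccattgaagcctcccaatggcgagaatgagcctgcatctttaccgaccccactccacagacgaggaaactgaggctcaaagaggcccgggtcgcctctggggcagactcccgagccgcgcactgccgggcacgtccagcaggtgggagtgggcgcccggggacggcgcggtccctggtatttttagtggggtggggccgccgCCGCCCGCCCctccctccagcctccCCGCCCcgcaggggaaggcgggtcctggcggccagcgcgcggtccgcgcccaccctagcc
LAMC1 promoter: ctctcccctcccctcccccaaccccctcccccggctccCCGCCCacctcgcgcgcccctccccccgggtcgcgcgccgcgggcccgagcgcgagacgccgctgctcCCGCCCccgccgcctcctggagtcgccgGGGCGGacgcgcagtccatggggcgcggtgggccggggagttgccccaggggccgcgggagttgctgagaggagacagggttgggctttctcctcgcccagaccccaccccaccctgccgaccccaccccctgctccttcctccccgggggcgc
LAMA1 promoter: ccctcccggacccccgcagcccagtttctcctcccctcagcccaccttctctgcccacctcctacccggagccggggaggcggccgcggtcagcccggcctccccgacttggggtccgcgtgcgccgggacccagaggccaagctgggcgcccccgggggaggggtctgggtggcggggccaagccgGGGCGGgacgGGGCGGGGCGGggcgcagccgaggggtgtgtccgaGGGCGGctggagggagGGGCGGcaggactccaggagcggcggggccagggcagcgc
LAMC1 shared DHS: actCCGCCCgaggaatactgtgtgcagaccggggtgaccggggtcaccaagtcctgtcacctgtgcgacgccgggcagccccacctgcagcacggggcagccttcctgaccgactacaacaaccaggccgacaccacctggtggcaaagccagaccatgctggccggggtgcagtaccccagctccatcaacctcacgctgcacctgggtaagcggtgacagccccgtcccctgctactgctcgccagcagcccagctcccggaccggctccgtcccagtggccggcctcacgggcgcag
LAMB3 stands apart among the 4 windows by base composition. Its GC content was 61.5% with 8 CpG dinucleotides and 1 GGGCGG match, whereas LAMC3 had 71.9% and 28 CpG, LAMC1 79.5% and 33 CpG, and LAMA1 79.5% and 29 CpG. LAMC3 and LAMC1 held 3 GGGCGG matches each and LAMA1 held 5. Over the windows of all 31 genes the median GC content was 69.4% (range 29.5% to 81.6%), against 62.2% over the coding-gene promoters of the genome.

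Several laminin chain genes were higher in PC9R and 1 integrin gene was lower, but the calls depended on whether library number was in the model. In the edgeR quasi-likelihood test without it, 0 of the 21 tested integrin and laminin genes passed an adjusted p of 0.05, and 3 (LAMB3, LAMC3 and LAMA1) had an unadjusted p below that threshold. Over all 12660 features tested, 0.253% passed, 0.19% higher and 0.0632% lower in PC9R. DESeq2 without the term called 2 of the 21, LAMB3 (adjusted p = 0.0357) and LAMC3 (adjusted p = 0.00529), and limma-voom called 0. With library number as a batch term, edgeR called 5 of the 21 (23.8%), against 20.8% of all features. LAMB3, LAMC1, LAMC3 and LAMA1 were higher, 4 of 21 against a background of 11.2%, and ITGA5 was lower, 1 of 21 against a background of 9.57%. By family, 4 of 8 tested laminin genes were called higher and none lower, while 0 of 13 tested integrin genes were called higher and 1 lower. LAMC3, LAMA1 and ITGB7 reached the cutoff of the low-count filter, 0.406 CPM before TMM scaling, only in PC9R libraries, so these 3 could enter the test only through PC9R. The other 18 tested genes reached it in libraries of both lines, and of these 2 (LAMB3 and LAMC1) were called higher and 1 lower. The counts and medians of tested genes are therefore descriptions. In the fit with a batch term the median log2 fold change (PC9R minus PC9) was 0.68 over the 8 laminin genes. It was 0.07 over the 13 integrin genes and -0.01 over all features. LAMC3 and LAMA1, which could enter only through PC9R, are among the 4 called laminin genes and are counted in the laminin median. The other tested laminin genes ranged from -0.77 (LAMA4) to 2.00 (LAMB3) in this fit, so the family medians are not compared further. With 4 libraries the batch-term fit has 1 residual degree of freedom, and most of the spread behind its p-values is therefore taken from other genes.

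Without a model, 7 of the 21 genes had both PC9R libraries above both PC9 libraries, against 16.9% of all features, and 1 (LAMA4) had both below, against 14.9%. The 7 include LAMC3, LAMA1 and ITGB7, which could enter the test only through PC9R. Higher in PC9R within both the first and the second libraries were 11 genes (36.6% of all features), and lower within both were 5 (37.4% of all features). LAMC3, LAMA1 and ITGB7 are also among the 11.

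**Figure D1:**
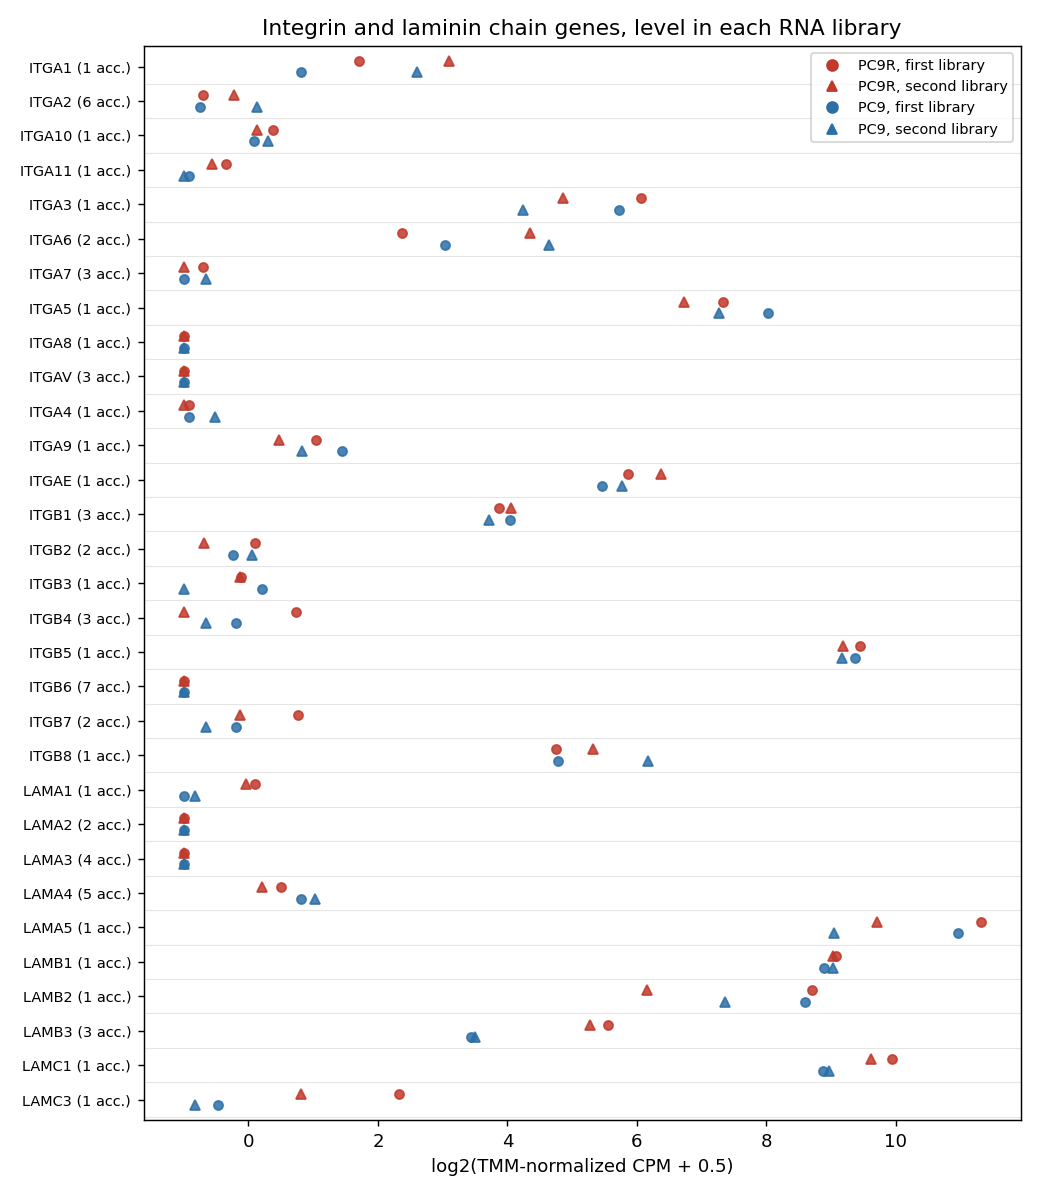
Level of each of the 31 genes in the 4 RNA libraries as log2(CPM + 0.5), with PC9R in red above PC9 in blue, circles for first and triangles for second libraries, and the number of RefSeq accessions (acc.) beside the name. LAMB3, LAMC1 and LAMC3 have both red points to the right of both blue points, and the 5 genes with 0 counts in all libraries line up at the left edge.

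Among laminin beta chains, LAMB3 carried the clearest difference. LAMB3 encodes the beta chain of laminin-332, the anchoring laminin of hemidesmosomes, on chromosome 1. It had 46.6 and 38.2 CPM in PC9R, against 10.3 and 10.8 CPM in PC9. Both PC9R libraries lay well above both PC9 libraries, and the libraries within a line were close to each other. The log2 fold change with a batch term was 2.00 (SE 0.23, edgeR adjusted p = 0.00115), a 4-fold difference, and without it 2.00 (edgeR adjusted p = 0.282). LAMB3 has 3 accessions, so the fold compares only the reads counted. The first of them held 824 and 333 counts in PC9R, against 158 and 77 counts in PC9. The second held 810 and 306 counts in PC9R, against 172 and 85 counts in PC9. Both accessions thus differed between the lines in the same direction and by a similar factor.

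LAMB1 and LAMB2, the beta chains of the more widely expressed laminins, did not pass in either fit. LAMB1 had 540 and 523 CPM in PC9R, against 476 and 519 CPM in PC9. These ranges stayed apart by a small margin, with a log2 fold change of 0.10 (SE 0.18, edgeR with a batch term, adjusted p = 0.733). LAMB2 had 415 and 71.0 CPM in PC9R, against 387 and 164 CPM in PC9, and the ranges overlapped. Its difference between the lines on the log2(CPM + 0.5) scale was 0.10 for the first pair of libraries and -1.20 for the second. DLD overlaps LAMB1 on the opposite strand, and without strand their reads cannot be told apart.

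LAMB2 shows how far the libraries of a line could differ. The second library was below the first by 2.54 in PC9R and by 1.24 in PC9 on the same log2 scale, and its transcript GC content is 60.3%. Over the 21 tested genes, transcript GC content and the second-minus-first difference had a Spearman rho of -0.80 in PC9R and -0.63 in PC9, a description over genes that share 2 libraries per line. Over the 11013 tested features with a GC value, rho was -0.68 in PC9R and -0.77 in PC9. The second-minus-first differences of all 12660 features correlated between the lines (Pearson r 0.819), which is the reason that values are given with the batch term and within first and second libraries.

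The laminin gamma chains gave the other large differences. LAMC1, the gamma chain common to most laminins, is a highly expressed gene with 1 accession. It had 984 and 785 CPM in PC9R, against 468 and 499 CPM in PC9. The lines did not overlap, and LAMC1 was called with a batch term at a log2 fold change of 0.86 (SE 0.19, edgeR adjusted p = 0.0157), a 1.82-fold difference, and not without it (edgeR adjusted p = 0.855). Between the first libraries the difference was 1.07, and between the second libraries 0.65. LAMC1-AS1 lies antisense to LAMC1, and without strand reads of both would be counted together.

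LAMC3, a gamma chain of more restricted tissue distribution, was near the detection limit in PC9. It had 158 and 21 counts in PC9R, against 7 and 1 counts in PC9. In CPM these were 4.50 and 1.25 in PC9R, against 0.220 and 0.0667 in PC9. The lowest PC9R value was above the highest PC9 value, and the ratio of normalized counts was 20.2 (95% exact counting interval 10 to 47.5). With a batch term the log2 fold change was 4.29 (SE 0.49, edgeR adjusted p = 0.00106), and without it 4.17 (edgeR adjusted p = 0.174). Leaving out 1 library without a batch term gave log2 fold changes of 2.95 (adjusted p = 0.871, without the first PC9R library) to 5.32 (adjusted p = 0.179, without the first PC9 library). It passed only without the second PC9R library (edgeR adjusted p = 0.00336), where the single PC9R library is assumed to vary as the PC9 libraries do.

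Of the laminin alpha chains, LAMA1 differed from a very low level. LAMA1 encodes the alpha chain of laminin-111, the laminin of early embryonic basement membranes. It had 20 and 8 counts in PC9R, against 0 and 1 counts in PC9. The ratio of normalized counts was 25.3, with a 95% exact counting interval of 4.18 to 1033. With a batch term it passed (edgeR adjusted p = 0.025), and without the term it did not (edgeR adjusted p = 0.316). However, at 0.570 and 0.476 CPM in PC9R it stayed below 1 CPM, and DESeq2 with the batch term did not call it (adjusted p = 0.109).

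LAMA5, the alpha chain of the main epithelial laminins of adult lung, had the highest mean CPM of the 31 genes. It had 2536 and 832 CPM in PC9R, against 1989 and 527 CPM in PC9. Within first libraries PC9R was higher by 0.35 and within second libraries by 0.66 on the log2 scale, but the ranges overlapped. The log2 fold change with a batch term was 0.50 (SE 0.18, edgeR adjusted p = 0.0769). ADRM1 overlaps LAMA5 on the opposite strand, with the same limit on strand. LAMA4, a chain of endothelial and muscle laminins with 5 accessions, had 0.911 and 0.654 CPM in PC9R, against 1.25 and 1.53 CPM in PC9. Both PC9R libraries were lower, and the gene did not pass (log2 fold change -0.77, SE 0.43, edgeR with a batch term, adjusted p = 0.233). LAMA2 and LAMA3 had 0 counts over 2 and 4 accessions.

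**Figure D2:**
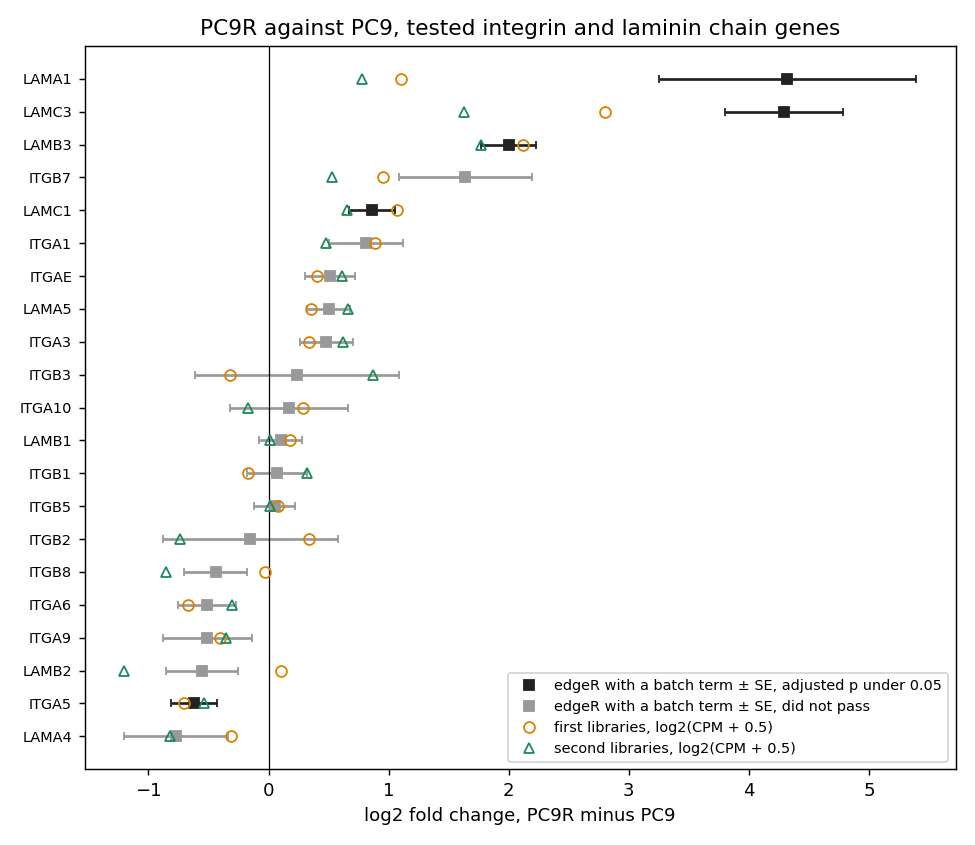
Log2 fold change (PC9R minus PC9) of the 21 tested genes from edgeR with a batch term, as squares with SE bars, beside the differences within the first libraries (circles) and second libraries (triangles) on the log2(CPM + 0.5) scale. LAMA1, LAMC3, LAMB3 and LAMC1 (black squares) lie right of 0 and ITGA5 lies left, and the 0.5 added to CPM pulls the circles and triangles of the lowest genes towards 0.

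Of the 13 tested integrin genes, ITGA5 was called lower and 12 did not pass in either fit. ITGA5 is the alpha chain of the fibronectin receptor. It had 161 and 106 CPM in PC9R, against 261 and 154 CPM in PC9. The ranges of the lines overlapped, and the second library of each line was lower than its first. Within first libraries PC9R was lower by 0.70 on the log2 scale, and within second libraries by 0.54. With a batch term the log2 fold change was -0.62 (SE 0.19, edgeR adjusted p = 0.0492), close to the threshold, and without it the edgeR adjusted p was 0.999. With the term, ITGA5 lost the call under upper quartile scaling (adjusted p = 0.0704) and under a stricter filter (adjusted p = 0.0502).

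The laminin-binding alpha chains differed in no common direction. ITGA3, which pairs with ITGB1, had 66.2 and 28.5 CPM in PC9R, against 52.2 and 18.4 CPM in PC9. ITGA6, which pairs with ITGB1 or ITGB4, had 4.67 and 19.8 CPM in PC9R, against 7.71 and 24.5 CPM in PC9. In both genes the libraries of a line differed more from each other than the lines did. Neither passed, with log2 fold changes of 0.48 for ITGA3 (SE 0.22, edgeR with a batch term, adjusted p = 0.15) and -0.51 for ITGA6 (SE 0.24, adjusted p = 0.176). ITGA7, the laminin receptor chain of muscle, had 4 counts in PC9R in all and 2 in PC9. ITGB4, the hemidesmosomal partner of ITGA6, had 41 and 0 counts in PC9R, against 12 and 2 counts in PC9, over 3 accessions, and was below the filter.

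Among the collagen-binding alpha chains, only ITGA1 and ITGA10 passed the filter on low counts. ITGA1, the alpha chain of a receptor for collagen IV, had 2.76 and 8.03 CPM in PC9R, against 1.25 and 5.61 CPM in PC9. Within each library pair PC9R was higher, by 0.89 and 0.48 on the log2 scale, while the ranges overlapped, and the gene did not pass (log2 fold change 0.81, SE 0.31, edgeR with a batch term, adjusted p = 0.101). ITGA1 spans PELO on the same strand, so reads could be shared between them. ITGA11, a fibrillar collagen receptor chain, had 10 and 3 counts in PC9R, against 1 and 0 counts in PC9, a ratio of 11.7 (95% exact counting interval 1.76 to 499), and it was below the filter. ITGA2, an alpha chain of platelet and epithelial collagen receptors, had 4 and 6 counts in PC9R, against 3 and 9 counts in PC9, over 6 accessions.

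No beta chain passed in either fit. ITGB5, the partner of ITGAV in a vitronectin receptor, had 700 and 578 CPM in PC9R, against 661 and 572 CPM in PC9. The ranges overlapped, and the log2 fold change was 0.05 (SE 0.17, edgeR with a batch term, adjusted p = 0.863). ITGB1, the common partner of most alpha chains, had 14.2 and 16.1 CPM in PC9R, against 16.0 and 12.7 CPM in PC9. It has 3 accessions, of which 1 held most of the counts, so its level is that of the reads counted. ITGB8, which with ITGAV activates latent TGF-beta, had 26.5 and 39.4 CPM in PC9R, against 27.0 and 71.6 CPM in PC9. Only the second PC9 library of ITGB8 stood apart, and the gene did not pass (edgeR with a batch term, adjusted p = 0.256).

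ITGAE and ITGB7 form a receptor for E-cadherin that is known from intraepithelial lymphocytes. ITGAE had 57.5 and 82.6 CPM in PC9R, against 43.4 and 53.9 CPM in PC9. The lines did not overlap, and ITGAE did not pass (log2 fold change 0.51, SE 0.21, edgeR with a batch term, adjusted p = 0.114). HASPIN lies inside ITGAE on the opposite strand, and no source used here says whether counting used strand. ZNF740 overlaps ITGB7 on the opposite strand, with the same limit. ITGB7 had 42 and 7 counts in PC9R, against 12 and 2 counts in PC9, with no overlap after normalization, and it did not pass (log2 fold change 1.64, SE 0.55, edgeR with a batch term, adjusted p = 0.0669). Beside these values, CD68 was the only gene of the leukocyte list that was tested. CD68 was called higher with a batch term, at 17.1 and 13.5 CPM in PC9R, against 8.5 and 8.48 CPM in PC9. CD14 had 12 counts in PC9R and 4 in PC9, while PTPRC had 0 counts in PC9R and 2 in PC9. Each has 4 accessions and neither was tested, so these low counts were not read as a direction. ITGA9, ITGA10, ITGB2 and ITGB3 were at or below 2.23 CPM in every library, and none passed.

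Per kilobase of the canonical transcript, the most abundant chains with 1 accession were LAMA5 at 147 mean CPM per kb in PC9R and 110 in PC9, ITGB5 at 144 in PC9R and 139 in PC9, and LAMC1 at 112 in PC9R and 61.0 in PC9. LAMB1 followed at 94.0 mean CPM per kb in PC9R and 88.0 in PC9. In PC9R the per-library levels of LAMA5 (222 and 72.9 CPM per kb) enclosed those of ITGB5 (158 and 130), LAMC1 (124 and 99.0) and LAMB1 (95.6 and 92.5). In PC9 LAMA5 (174 and 46.1 CPM per kb) likewise enclosed ITGB5 (149 and 129), LAMB1 (84.2 and 91.8) and LAMC1 (59.0 and 63.0). LAMA5 and the chains next to it in this order are thus not separated beyond the spread between libraries. LAMC1 lay above LAMB1 in both PC9R libraries and below it in both PC9 libraries. The canonical transcript need not be the counted one, so this order is a description.

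Genes that act with integrins and laminins were read from 4 lists, chosen with earlier results of these data known. The shares called in them are therefore descriptions. Among the integrin adaptors, which link the cytoplasmic tails to actin, 3 of 18 tested genes were called higher and 1 lower with a batch term, and 0 without it (median log2 fold change -0.06 with the batch term). The 22.2% of adaptors called lies near the 20.8% of all features. TNS1, a tensin, had 49.8 and 9.15 CPM in PC9R, against 8.31 and 1.74 CPM in PC9 (log2 fold change 2.51, SE 0.25, edgeR with a batch term, adjusted p = 0.000611). TLN2, a talin that activates integrins, had 11.2 and 11.8 CPM in PC9R, against 21.0 and 22.1 CPM in PC9, and was the adaptor called lower (log2 fold change -0.91, adjusted p = 0.0261 in the same fit). The tensin TNS3 and the parvin PARVA were also called higher, at log2 fold changes of 0.86 and 0.77 (adjusted p = 0.0135 and 0.0252). All 4 hemidesmosome partners were tested, and COL17A1, a transmembrane collagen that binds laminin-332, was the 1 called higher with a batch term, with 0 lower and 0 called without it (median log2 fold change 0.41 with the batch term). This is 25% of a list of 4, against 20.8% of all features. COL17A1 had 11.3 and 8.80 CPM in PC9R, against 2.20 and 3.54 CPM in PC9 (log2 fold change 1.86, SE 0.33, edgeR adjusted p = 0.00734).

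Of the basement membrane partners, 3 of 12 tested genes were called higher and 1 lower with a batch term, and 0 without it (median log2 fold change 0.20 with the batch term). With the term 33.3% of these genes were called, against 20.8% of all features (11.2% higher and 9.57% lower). COL4A3 and COL4A4 encode collagen IV chains of mature lung and kidney basement membranes and are transcribed from neighbouring starts, so their values are not independent. COL4A4 had 38.9 and 10.5 CPM in PC9R, against 0.188 and 0.334 CPM in PC9 (log2 fold change 6.72, SE 0.55, edgeR with a batch term, adjusted p = 0.000218). Without the batch term COL4A4 missed the threshold narrowly (adjusted p = 0.0509). COL4A3 and COL4A4 reached the filter cutoff only in PC9R. COL4A3 had 38.9 and 8.38 CPM in PC9R, against 0.345 and 0.4 CPM in PC9 (log2 fold change 6.03, edgeR with a batch term, adjusted p = 0.000298). NID2, a nidogen that joins laminin to collagen IV, had 9.06 and 32.1 CPM in PC9R, against 0.408 and 1.74 CPM in PC9 (log2 fold change 4.31, SE 0.30, edgeR with a batch term, adjusted p = 0.000146). COL7A1, the anchoring-fibril collagen, was called lower at 285 and 156 CPM in PC9R, against 590 and 249 CPM in PC9, with ranges that overlapped (log2 fold change -0.86, edgeR with a batch term, adjusted p = 0.0164).

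Among integrin ligands, 4 of 8 tested genes were called higher and 3 lower with a batch term, and 1 (TNC, lower) without it (median log2 fold change 0.77 with the batch term). The shares were 87.5% of the ligands with the term, against 20.8% of all features, and 12.5% without it, against 0.253%. The list, TNC included, was chosen with earlier results of these data known, so these shares are descriptions. The named ligands were chosen as the called ones with the greatest fold changes. FN1, fibronectin and the main ligand of the receptor that contains ITGA5, has 6 accessions. It had 7.46 and 10.4 CPM in PC9R, against 0.314 and 0.667 CPM in PC9 (log2 fold change 4.26, SE 0.36, edgeR with a batch term, adjusted p = 0.000276). With 6 accessions, FN1 is compared only by the reads counted. ITGA5 was lower in PC9R with ranges that overlapped and a call close to the threshold (edgeR with a batch term, adjusted p = 0.0492). A link between FN1 and ITGA5 was not tested. VTN, vitronectin, had 14.5 and 2.32 CPM in PC9R, against 0.251 and 0.0667 CPM in PC9 (log2 fold change 5.71, SE 0.45, edgeR with a batch term, adjusted p = 0.0002). VTN and SPP1 reached the filter cutoff only in PC9R. SPP1, osteopontin, had 167 counts in PC9R and 0 counts in PC9 over its 5 accessions, and was at least 50.2-fold higher when 3 counts over both PC9 libraries are taken as the floor. TNC, tenascin C, had 0.171 and 0.476 CPM in PC9R, against 137 and 215 CPM in PC9 (log2 fold change -9.17, edgeR without a batch term, adjusted p = 0.0359, and 0.0536 with upper quartile scaling).

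Chromatin was compared from 1 library per assay and line, so no difference in peaks has a replicate check and none was tested. Coordinates are those of the deposited lists, in hg19, which has the coordinates of GRCh37. A promoter peak is one that overlaps the 1 kb on either side of any annotated TSS of the gene. A promoter DHS was found at 14 of the 31 genes in PC9R, against 47.6% of coding genes, and at 13 in PC9, against 35.2%. In 10 of the 31 it was found in both lines (27.8% of coding genes) and in 14 in neither (45.1%). ITGA1, ITGA6, ITGB5 and LAMB3 had a promoter DHS in PC9R alone, 4 of 31 against 19.8% of coding genes. LAMA3, LAMA4 and LAMB2 had one in PC9 alone, 3 of 31 against 7.31%. These class counts moved with the peak cutoff. With the DHS lists set to equal numbers by score, PC9R had a promoter DHS at 10 genes, against 24.5% of coding genes, and PC9 at 13, against 35.2%. The higher number in PC9 under this setting was thus also found over coding genes. A promoter H3K4me2 peak was present at 28 genes in PC9R (75.1% of coding genes) and at 27 in PC9 (71.1%). It was present in both lines at 27 (70.2%) and in PC9R alone at ITGB7 (4.87%). It was found in PC9 alone at none (0.84%), and in neither line at ITGA4, ITGA8 and LAMA1 (24.1%).

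In all, the 31 genes held 78 DHS and 246 H3K4me2 peaks in PC9R, against 25 DHS and 204 H3K4me2 peaks in PC9. The DHS within gene bodies were 71 in PC9R and 23 in PC9, a ratio of 3.09. The ratio was 2.9 over all coding gene bodies and 3.03 over the whole lists. H3K4me2 peaks within gene bodies were 233 in PC9R and 197 in PC9, a ratio of 1.18, against 1.3 over all coding gene bodies and 1.38 over the whole lists. Of the DHS at these genes, 14.1% in PC9R overlapped a DHS of PC9, and 44% in PC9 overlapped one of PC9R, against 14.3% in PC9R and 43.2% in PC9 over the whole lists. An H3K4me2 peak of the same line overlapped 38.5% of the DHS at these genes in PC9R and 84% in PC9. Over the whole lists these shares were 25.8% in PC9R and 52.2% in PC9. The whole lists include DHS outside genes, so the overlap shares do not have a like base. Of the DHS at these genes, 28 of 78 in PC9R and 15 of 25 in PC9 were at promoters. The difference was therefore not read as a trait of these genes.

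**Figure D3:**
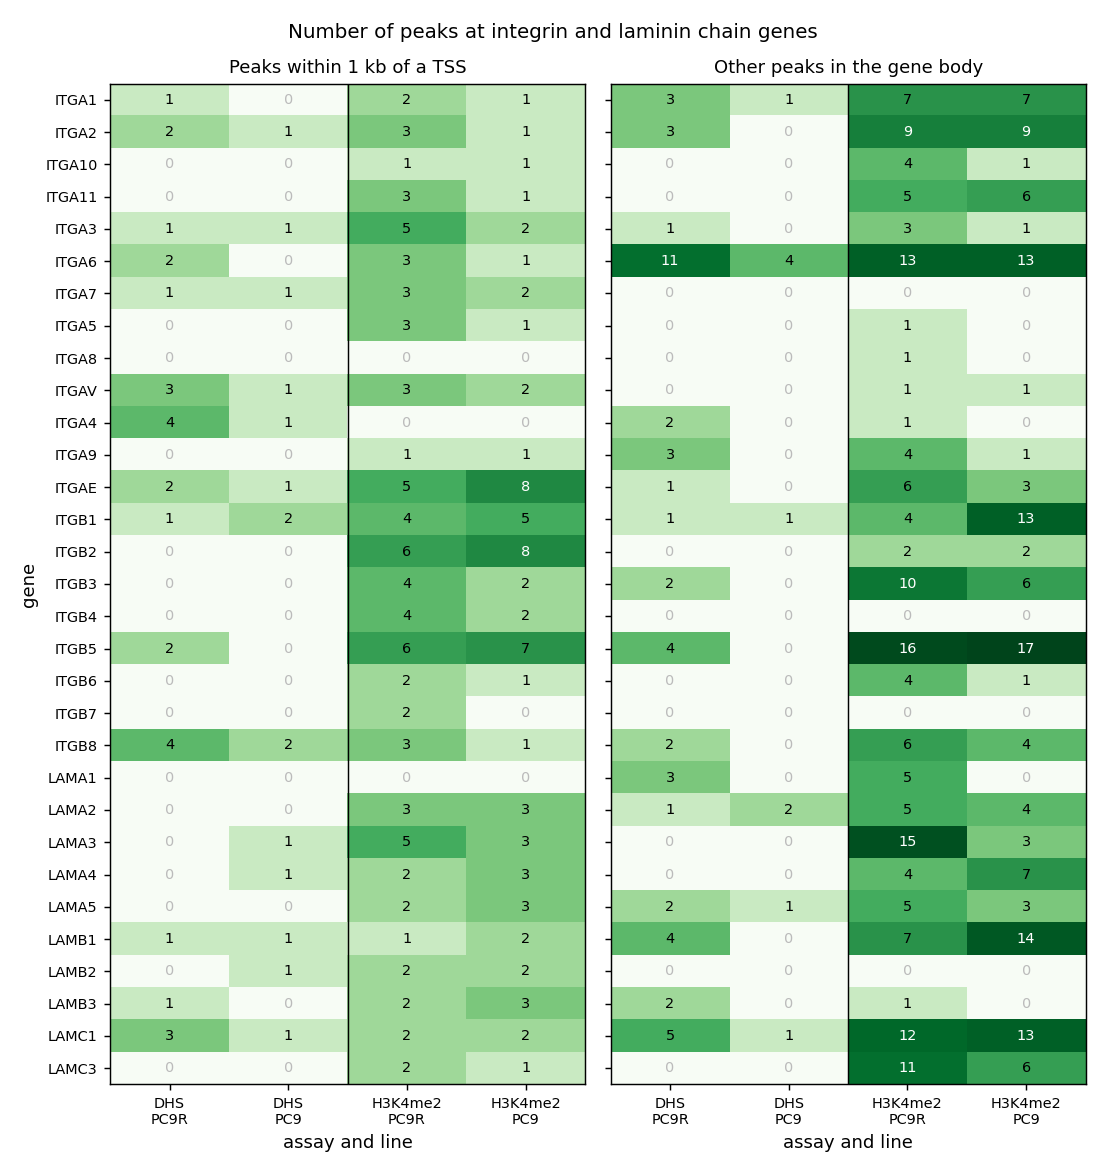
Number of DHS and H3K4me2 peaks at each of the 31 genes in PC9R and in PC9, within 1 kb of a TSS (left) and elsewhere in the gene body (right), with darker green for more peaks. H3K4me2 is present near a TSS of 28 genes in PC9R and 27 in PC9, whereas many cells of the DHS columns are 0.

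The 4 laminin genes that were higher in PC9R had 4 different chromatin pictures. At LAMB3, a DHS of PC9R at chr1:209825766-209826058 covered the canonical TSS, and PC9 had no DHS at the gene. This DHS set the length of the promoter windows printed above, 288 bases, so it covers the whole LAMB3 window by construction. Its score, the authors' own value per peak, was exceeded by 16.9% of the PC9R list. H3K4me2 covered the same TSS in both lines, in a peak of 1789 bp in PC9R and one of 1571 bp in PC9. LAMC1 had an open site inside the gene close to its start in both lines. In PC9R it spanned chr1:182993000-182993429 and only 1.46% of the list was scored higher, and in PC9 it spanned chr1:182992983-182993423 with 68.2% scored higher. Ranks of lists that differ in length show no change. LAMC3 had no DHS in either line, and its H3K4me2 flanked the TSS in PC9R with peaks of 529 and 258 bp, whereas a single peak of 785 bp covered it in PC9. H3K4me2 covered 5.66% of the LAMC3 body in PC9R and 3.09% in PC9. LAMA1 had no peak of either kind in PC9. In PC9R it had 3 DHS and 5 H3K4me2 peaks in its body, none within 1 kb of a TSS.

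**Figure D4:**
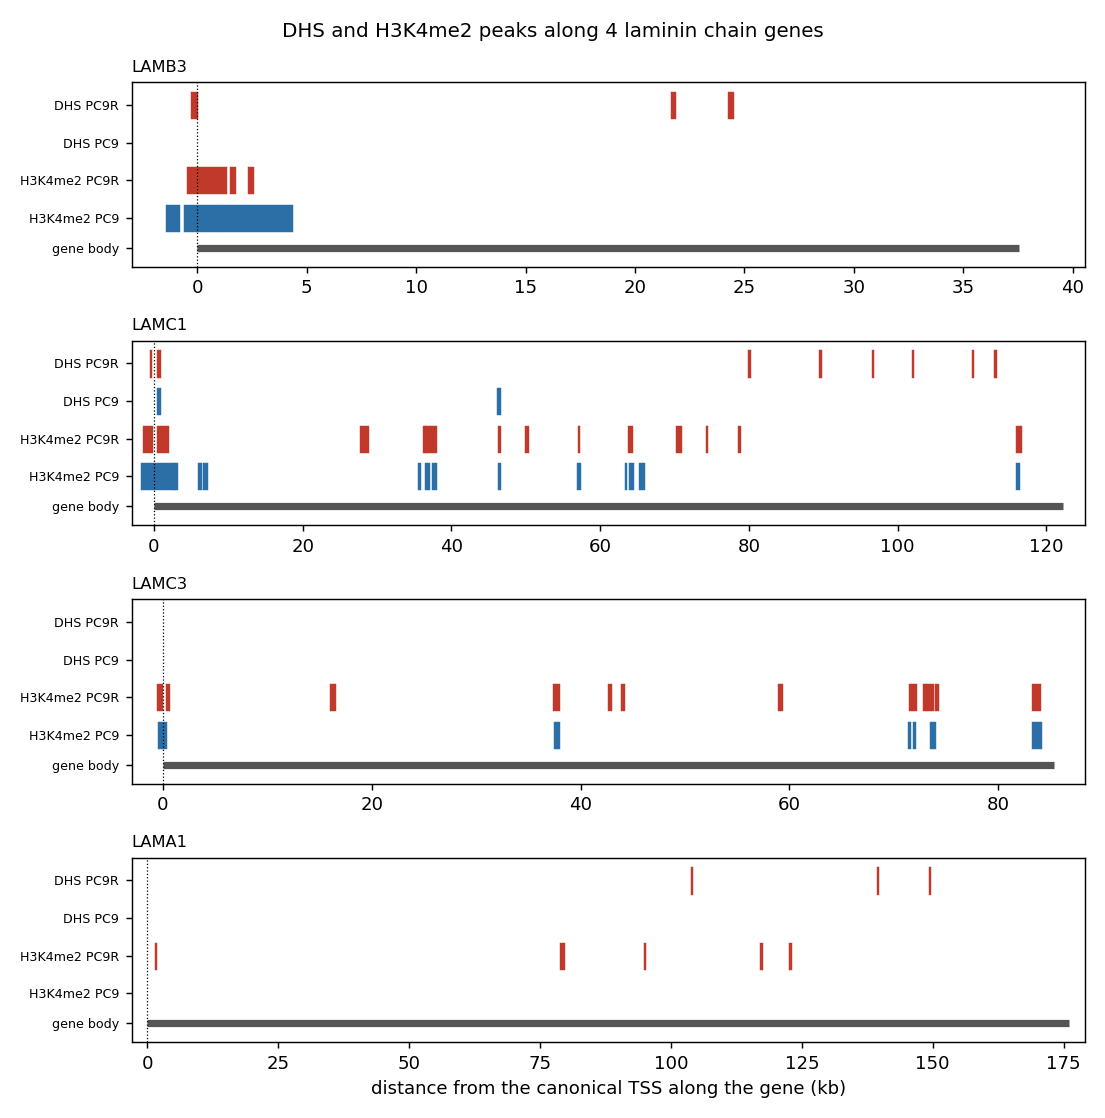
Position of DHS and H3K4me2 peaks along LAMB3, LAMC1, LAMC3 and LAMA1, as distance in kb from the canonical TSS (dotted line), with PC9R in red above PC9 in blue and the gene body in grey. Outlines widen narrow peaks and can close short gaps, and the LAMA1 rows of PC9 are empty while PC9R has 3 DHS and 5 H3K4me2 peaks there.

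Among the integrins with a promoter DHS in PC9R alone, the peaks of ITGA1 (chr5:52083490-52083786), ITGA6 (chr2:173291998-173292213) and ITGB5 (chr3:124606423-124606738) each covered an annotated TSS. The ITGA1 peak also lies within 1 kb of the start of PELO. None of the 3 genes was called in expression in either fit. ITGA6 had the most DHS of the 31 genes, 13 in PC9R and 4 in PC9, covering 3.32% of its body in PC9R and 0.899% in PC9. ITGB5 had 6 DHS in PC9R and 0 in PC9 at nearly equal RNA levels. The promoter DHS of LAMB2 and LAMA4 in PC9 alone lay at chr3:49169713-49170101 and chr6:112575012-112575371, and neither gene was called.

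A promoter DHS in both lines did not always mean the same site. At 6 of the 10 genes the promoter peaks of the lines overlapped, and at ITGA3, ITGA4, ITGAE and LAMB1 they lay at different annotated starts. ITGA4, an alpha chain of leukocyte receptors for VCAM1, had 1 count in PC9R and 4 in PC9. In PC9R it had 4 promoter DHS, including chr2:182322246-182322612, which covers an annotated start, with 1.72% of the list scored higher, and in PC9 it had 1, at chr2:182363849-182364043. ITGA4 had no promoter H3K4me2 in either line. At ITGAE, the PC9R peaks lay beside the start of HASPIN and the PC9 peak at chr17:3657919-3658664, a start inside ITGAE. ITGAV, the alpha chain of RGD-binding receptors, had promoter DHS and H3K4me2 in both lines at 0 counts over its 3 accessions. How reads shared by accessions were counted was not tested, so no statement on ITGAV expression was made.

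Gene-body H3K4me2 differed most in number at a few genes. LAMA3, the alpha chain of laminin-332, had 15 peaks away from its promoters in PC9R and 3 in PC9, covering 2.84% of the body in PC9R and 1.25% in PC9, promoter peaks included. ITGB1 had 4 such peaks in PC9R and 13 in PC9, covering 2.87% of the body in PC9R and 13.5% in PC9. LAMB1 had 7 in PC9R and 14 in PC9, covering 5.05% in PC9R and 11.4% in PC9. Over the whole lists H3K4me2 peaks had a median width of 395 bp in PC9R and 546 bp in PC9, so peak number and covered length need not move together. ITGB7 had 2 H3K4me2 peaks in PC9R, of 1065 and 609 bp, and 0 in PC9.

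Motifs were searched by exact letters on both strands in the 288 bases before the canonical start of each gene, counting overlapping matches. GGGCGG was found at 22 of the 31 genes, LAMB3, LAMC1, LAMC3 and LAMA1 among them, and at 60.5% of 19841 coding-gene windows. TGANTCA, the AP-1 letters, was found at ITGB4 only (5.49% of coding-gene windows), and TATAAA at ITGA6 only (10.6%). The median number of CpG was 24 over the 31 genes (range 0 to 40) and 20 over coding genes. A missing match says only that these letters are not in this window.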

How the data were processed

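RNA-seq was measured in 4 libraries, and DHS and H3K4me2 in 1 library per line. Titles gave the line and the assay of each sample. MACS2, TopHat, HTSeq, DESeq and the build hg19 stand in the submitters' processing notes; the sources used here give no version, peak threshold, control library, counting mode or strandedness. RNA files, as deposited, hold raw counts per RefSeq accession. The deposited peak lists hold a score per peak, made by the authors on a scale that no source states, and it was used only to rank or filter peaks within a list.

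Counts were summed by gene symbol. Symbols, and nothing else, were taken from RefSeq's gene table for GRCh38.p14 (41556 of 42811 accessions matched, and the rest, 0.668% to 0.824% of the counts of a library, were kept as features of their own). Positions came from GENCODE 44 lifted to GRCh37, and no peak lay past a chromosome end. edgeR 4.0.16 in R 4.3.3 (TMM, filterByExpr, two-sided quasi-likelihood F test, Benjamini-Hochberg over 12660 features) was run without and with library number as a batch term. The labels title 1 library of each line as a repeat, which is where the numbers come from. The second-minus-first differences correlated between the lines (r = 0.819), and the biological coefficient of variation was 0.498 without and 0.18 with the term. Fold changes are PC9R minus PC9, SE is the fold change over the root of F, and count ratios have exact 95% intervals that, like the floor of 3 counts, cover counting error only. Peaks overlap by at least 1 bp. The alternatives tried were scaling by RLE or upper quartile, no filter, a stricter filter, DESeq2 1.42.0, limma-voom 3.58.1, each accession alone, leaving out each library, and other windows, starts, scores and overlaps for peaks.

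The genes and lists were chosen with earlier results of these data known. Values per library are given for genes called in either fit, for those with a promoter peak that differs between the lines and at least 1 CPM, for the 6 with the highest mean CPM, and for others by role. Of each partner list, up to 4 called genes with the largest fold changes, or else the 2 of highest mean CPM, are named.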

Additional observations from a re-analysis of the deposited data

How the results depend on the processing

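Over all features, 32 calls without a batch term became 0 with upper quartile scaling in edgeR (919 at unadjusted p under 0.05), 440 with no filter, 381 in DESeq2, 73 in limma-voom, and 83 to 254 when 1 library was left out. Of the integrin and laminin genes, 0 calls became 1 with no filter (LAMC3), 2 in DESeq2, and 0 to 1 when 1 library was left out (LAMC3, without the second PC9R library). With the replicate block, which uses library number for pairing, 2631 features and 5 of these genes were called, and 3 under that block with a stricter filter.

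LAMB3, LAMC1 and LAMC3 were called in all 6 batch-term settings. ITGA5 lost its call with upper quartile scaling (-0.57, adjusted p = 0.0704) and a stricter filter (-0.61, adjusted p = 0.0502), LAMA1 in DESeq2 (4.59, adjusted p = 0.109), and TNC without the term under upper quartile scaling (adjusted p = 0.0536). A batch-term fit without 1 library could not be made, as no residual degree of freedom is left.

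Without the batch term, leaving out 1 library reversed the sign of 11 genes that were not called, with log2 fold changes over these settings from -0.31 to 2.08 for ITGA1, -0.11 to 0.30 for ITGA10, -0.31 to 1.35 for ITGA3, -1.80 to 0.65 for ITGA6, -0.10 to 0.24 for ITGB1, -0.56 to 0.39 for ITGB2, -0.66 to 0.20 for ITGB3, -0.09 to 0.17 for ITGB5, -1.13 to 0.27 for ITGB8, -0.59 to 1.66 for LAMA5, and -1.95 to 0.58 for LAMB2. Of the genes called with the term, the same settings gave 1.85 to 2.12 for LAMB3, 0.70 to 1.01 for LAMC1, 2.95 to 5.32 for LAMC3, 2.87 to 6.88 for LAMA1 (not tested without the first PC9R library) and -1 to -0.22 for ITGA5. For partners moved by over 1.5-fold they gave 0.86 to 4.07 for TNS1, 0.09 to 1.53 for TNS3, 5.36 to 7.25 for COL4A4, 4.49 to 6.69 for COL4A3, 3.11 to 5.62 for NID2, -1.45 to -0.19 for COL7A1, -9.99 to -8.51 for TNC and 3.69 to 6.86 for VTN. The lowest value came without the first PC9R library for LAMB3, LAMC1, LAMC3, TNS1, TNS3, COL4A4, COL4A3 and VTN. LAMA1 was lowest without the first PC9 library and highest without the second, ITGA5 and COL7A1 were nearest 0 without the first PC9 library, NID2 was lowest without the second PC9R library, and TNC was nearest 0 without the first PC9R library. Each such fit has 1 library in a line, which is assumed to vary as the other line does. The 13 genes with a promoter DHS in PC9 became 8 with the outermost start only and 5 with the higher-scored 50% of the peaks, while the 14 in PC9R and both H3K4me2 totals per line stayed within 1.5 times under every alternative run. The classes moved more. The 10 genes with a promoter DHS in both lines became 5 with the outermost start, 3 with the higher-scored 50% and 6 with lists of equal length. The 4 in PC9R alone became 7 with the outermost start and 8 with the higher-scored 50%, and the 3 in PC9 alone became 5 with a 2 kb window and 7 with lists of equal length. Over coding genes, PC9 alone likewise went from 7.31% to 17.4% with lists of equal length. For H3K4me2, PC9R alone (1) became 2 with a 2 kb window or the higher-scored 50%, PC9 alone (0) became 2 with the outermost start and 1 with lists of equal length, and neither (3) became 5 with the outermost start. The cause of these changes was not tested. Depth limits genes under about 1 CPM, such as LAMA1 in both lines and LAMC3 in PC9.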
